A study of Mus musculus with 6 samples.

Results

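The genes described here were grouped as genes for proteins of the embryonic liver and of blood plasma. They are Afp, Alb, Ttr, Apoa1, Apoa2, Apom, Fgb, Ahsg, Trf and Spink1, 10 genes taken by name, with every array probe whose platform symbol is one of them. Of the 10, 9 had a probe, 1 each, out of 20289 probes on the array. Alb was not among the symbols of the platform annotation used here. RNA came from the urogenital ridges of mouse embryos of the Mf1 strain at E11.5, with 11 to 12 tail somites. The groups were wild type and embryos homozygous for a deletion of Wt1, the Wilms tumour gene. Each was measured on 3 single-colour CodeLink arrays, with RNA pooled from 5 embryos (4 female, 1 male) per array. Whether replicate arrays shared a pool is not stated in the labels. The p-values therefore cover the spread among arrays alone, and that spread may be technical.

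Hepatoblasts, the progenitors of liver cells, begin to secrete plasma proteins soon after the liver bud forms, and alpha-fetoprotein and albumin are their classical markers. Several of these proteins are carriers: transthyretin (Ttr) binds thyroid hormone and the retinol-binding protein, transferrin (Trf) carries iron, and the apolipoproteins carry lipid. Many of the genes are not confined to the liver. Transthyretin is also made by the visceral yolk sac, the choroid plexus and pancreatic islets, and Apom by the kidney tubule as well as the liver. Spink1, listed by older annotations as Spink3, encodes a secreted trypsin inhibitor best known from the exocrine pancreas. The array compared RNA of whole ridges, so fewer cells of a type and less RNA per cell cannot be told apart.

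The RefSeq promoter table (build GRCm38.p6) held 7 of the 10 genes, and 250 bases before the annotated start are shown for 3 of them. Apom and Apoa1 are shown because they are the 2 apolipoprotein members that fell, and Afp as the classical hepatoblast gene. Capitals mark matches on either strand to AGGTCA or GGGTCA (nuclear receptor half-sites) and TATAAA (the TATA box), with overlaps allowed. These motifs were chosen with the sequences in view. The windows are chr17:35131802-35132051 on the minus strand for Apom, chr9:46228380-46228629 on the plus strand for Apoa1 and chr5:90490464-90490713 on the plus strand for Afp.
Apom: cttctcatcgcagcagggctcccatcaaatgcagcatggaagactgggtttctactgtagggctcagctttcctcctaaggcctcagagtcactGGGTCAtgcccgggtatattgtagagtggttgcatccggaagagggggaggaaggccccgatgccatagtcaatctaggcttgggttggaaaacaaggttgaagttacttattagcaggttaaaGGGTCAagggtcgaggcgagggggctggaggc
Apoa1: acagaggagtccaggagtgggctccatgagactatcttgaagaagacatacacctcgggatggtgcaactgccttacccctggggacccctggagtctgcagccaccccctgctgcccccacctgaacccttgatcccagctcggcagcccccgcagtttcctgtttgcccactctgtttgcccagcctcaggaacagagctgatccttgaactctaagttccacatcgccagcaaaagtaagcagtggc
Afp: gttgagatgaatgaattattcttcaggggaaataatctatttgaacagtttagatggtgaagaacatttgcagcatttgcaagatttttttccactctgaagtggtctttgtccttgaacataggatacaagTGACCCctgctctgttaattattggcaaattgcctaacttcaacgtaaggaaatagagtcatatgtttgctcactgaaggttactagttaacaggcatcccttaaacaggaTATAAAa
Apom held GGGTCA at 2 places, the nearer at 32 to 27 bases before the start. Afp held 1 match to the second nuclear receptor half-site (on the opposite strand), at 118 to 113 bases before the start. It also held 1 match to TATAAA, at 7 to 2 bases before the annotated start. None of the 3 motifs was found in the Apoa1 window. Of the members not shown, Fgb, Alb and Ahsg held none of the 3 motifs. Apoa2 held TATAAA in 1 annotated window and AGGTCA in another. Over all 32841 promoters of the same length, 14.0% held AGGTCA, 11.6% GGGTCA and 12.4% TATAAA. A match is a string of letters and not a measured site.

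Each deposited value is a spot's brightness on a linear scale, with a median between 0.956 and 0.966 on every array. Arrays of the wild type correlated at r = 0.991 to 0.992 across probes and those of the knockout at 0.983 to 0.986. The root mean square deviation from the genotype's mean was 0.178 to 0.184 on the log2 scale for the wild-type arrays and 0.246 to 0.269 for the knockout arrays, the highest being knockout array 1. Wt1 itself had intensities of 44.1, 43.6 and 39.1 in wild type and 14.3, 15.7 and 14.2 in knockout on its brighter probe. As a check of the tissue, Lhx9, Osr1, Gata4, Emx2 and Tcf21 of the urogenital ridge list had a signal above the limit for dim probes in both genotypes, Pax8 lay under it, and Pax2 was not on the platform annotation. A probe was tested if its mean log2 signal lay above the 25th percentile of all probes, an intensity of 0.217. A gene described as under the limit had a mean over all 6 arrays under it, and was not tested. A probe with 1 genotype under the limit could pass through the other, as Gcg, Nkx2-2, Saa2 and Apoa2 did, among others.

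All 9 probes passed that limit, and 4 of them passed adjusted p under 0.05 (limma's moderated test, Benjamini-Hochberg over 15062 probes), with Ttr higher and Spink1, Apom and Apoa1 lower in the knockout. Over all tested probes the share called was 41.3%, with 24.1% higher and 17.2% lower, so the count of 4 in 9 is near the background and is no result about the group. The excess of higher calls depended on the scaling. Of the probes called, 58.3% were higher in the main setting, 50.7% under quantile and 49.5% under cyclic loess normalization. The ranges of wild-type and knockout values were apart, with no overlap, at 5 of the 9 probes, against 52.8% of all probes. By size, 3 members were called at 2-fold or more, against 4.69% of all probes, and 2 at 4-fold or more, against 0.518%. The genes were chosen with earlier results of these arrays known, which bears on these last counts. The lists below were chosen in the same way, and their counts stand beside the same 24.1% higher and 17.2% lower. Ttr ranked 29th and Spink1 60th of 15062 by the size of the change. The median log2 change was -0.14 over the 9 genes and 0.09 over all probes.

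**Figure D1:**
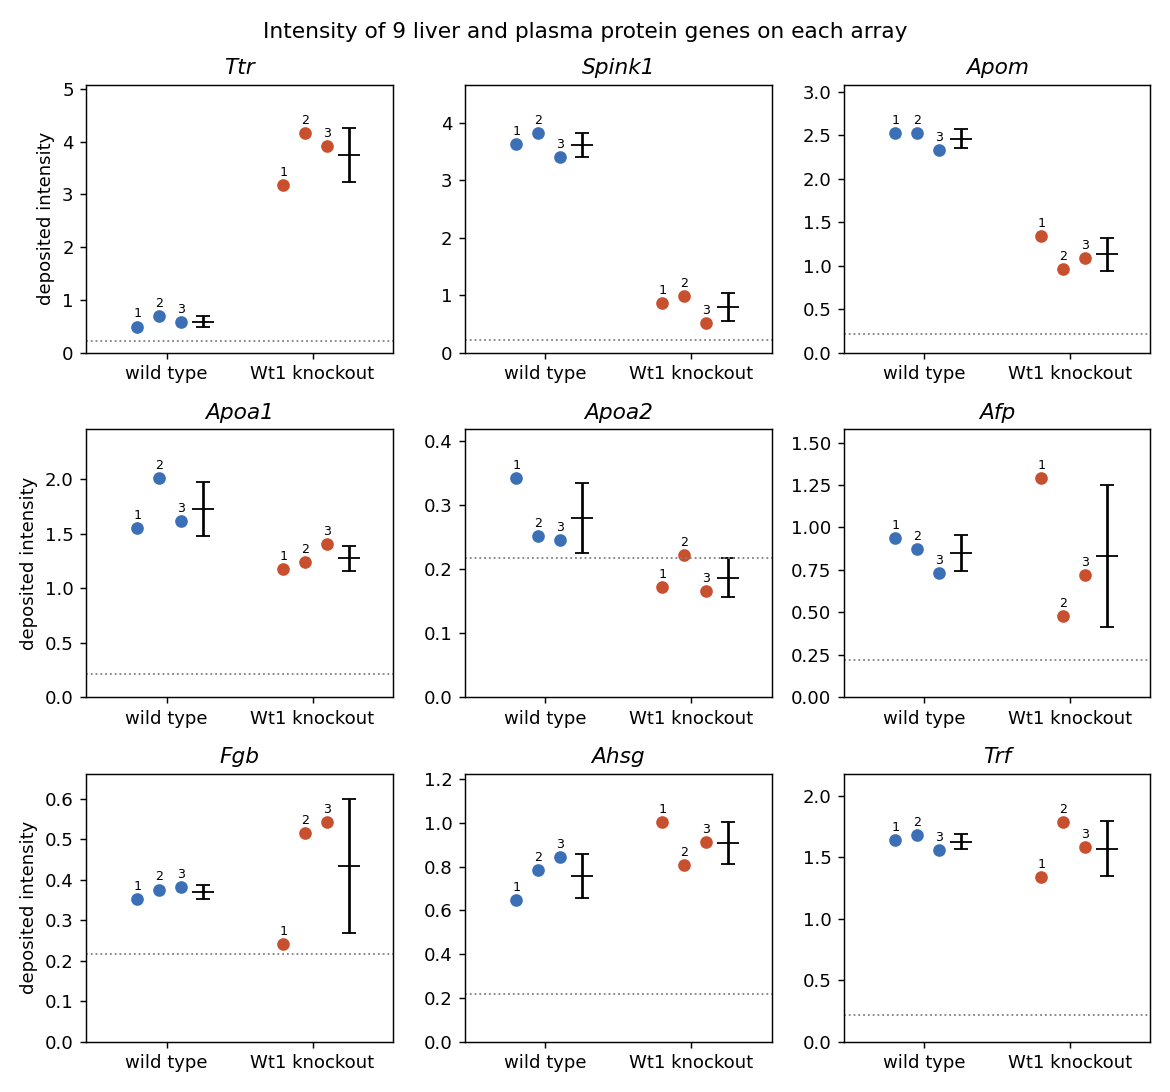
Deposited intensity (linear axis from 0, a separate scale for each gene) of the 9 genes on each array, numbered by replicate, with the mean and SD of each genotype beside the points and a dotted line at the limit for dim probes (0.217). Ttr stands higher on all 3 knockout arrays, Spink1, Apom and Apoa1 stand lower, and Afp, Fgb, Ahsg and Trf overlap between the genotypes.

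Ttr, the carrier of thyroid hormone and of retinol-binding protein, was the one member that rose. Its intensity was 0.496, 0.696 and 0.573 on the wild-type arrays and 3.17, 4.16 and 3.92 on the knockout arrays. Every knockout array was far above every wild-type array, and the lowest knockout value was that of array 1. The wild-type mean was 0.588 ± 0.101 and the knockout mean 3.75 ± 0.515 (SD, n = 3 each), a 6.40-fold rise with a 95% interval of 5.15 to 7.96 (adjusted p = 2.03e-07, limma). Its binding partner in plasma, Rbp4, rose 3.35-fold, from 1.48 ± 0.0994 to 4.96 ± 0.0228 (adjusted p = 8.50e-08, limma). Of 6 tested genes on the list of retinol and thyroid hormone transport, 2 rose and none fell, Rbp4, which is also on the list of plasma carriers, and Crym, which encodes a thyroid hormone-binding protein of the cytosol and rose 1.51-fold. The count of 0 lower genes became 1 without knockout array 1, without knockout array 3 and with array weights. Stra6, the membrane receptor for retinol-binding protein, did not pass, with a log2 change of -0.53 ± 0.26 (SE).

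The pancreatic islet is another known source of transthyretin, and markers of endocrine cells moved with Ttr. Of 10 tested genes of the islet and endocrine list, 7 were called higher and none lower, against 24.1% and 17.2% of all tested probes. The list was chosen with earlier results of these arrays known. Gcg and Nkx2-2 had wild-type means of 0.161 and 0.0774, under the limit for dim probes, and passed it through their knockout arrays. They were thus tested because of the genotype in which they were high. The count of higher genes was 7 with no filter on dim probes and 4 among probes above the median probe. The list's summed intensity ran from 15.1 to 15.9 on wild-type arrays and from 37.3 to 40.9 on knockout arrays. Gcg, which encodes the precursor of glucagon, rose at least 13.3-fold, Pyy (peptide YY) rose 10.6-fold and Sst (somatostatin) 4.09-fold. Nkx2-2, an endocrine progenitor factor, was at least 2.54-fold higher. Ins2, which encodes insulin, had means of 0.235 in wild type and 0.262 in knockout and did not pass, and Pdx1, which marks the early pancreas, lay under the limit for dim probes. The part of these cells in the rise of Ttr was not tested.

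The lipoprotein members went down or did not pass. Apom, a lipocalin that rides on high-density lipoprotein and carries sphingosine 1-phosphate, had intensities of 2.52, 2.52 and 2.33 in wild type and 1.34, 0.962 and 1.09 in knockout. The 2 sets of arrays were far apart, with knockout array 1 the highest of its group. The means were 2.46 ± 0.108 and 1.13 ± 0.192 (SD, n = 3 each), so that 45.6% of the wild-type signal remained (adjusted p = 2.87e-05, limma). Apoa1, the main protein of high-density lipoprotein, had intensities of 1.55, 2.01 and 1.61 in wild type and 1.18, 1.24 and 1.40 in knockout. The groups did not overlap, but wild-type array 2 stood above the other wild-type arrays. The log2 change was -0.43 ± 0.12 (SE, adjusted p = 0.0154, limma), and without wild-type array 2 it was -0.32 with adjusted p = 0.0922, so this call rested on that array. Apoa2, the second protein of the same particle, had intensities of 0.343, 0.251 and 0.245 in wild type and 0.172, 0.223 and 0.167 in knockout. The arrays did not overlap, yet 2 of the 3 knockout values lay under the limit for dim probes, and the change of -0.58 ± 0.41 (SE) did not pass (adjusted p = 0.289, limma). Without the intensity trend in limma's variance prior the same change had adjusted p = 0.0490. Apoa2 passed the limit through its wild-type arrays and was tested in 12 of 16 alternatives, 11 of which gave no call. It was not tested without wild-type array 1, 2 or 3, nor among probes above the median probe.

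The wider list of apolipoproteins and lipoprotein handling had 15 tested genes, of which 7 fell and 2 rose, with a median log2 change of -0.28. Over all tested probes 17.2% fell and 24.1% rose. The 3 largest losses were in Scarb1, Clu and Lpl. Scarb1, the receptor for high-density lipoprotein, fell 2.42-fold from 3.04 ± 0.0279 to 1.26 ± 0.142. Lpl, the lipase that releases fatty acids from lipoproteins, fell 2.24-fold from 45.5 ± 2.26 to 20.3 ± 0.984, and Clu, which encodes the apolipoprotein clusterin, 2.36-fold from 2.54 ± 0.140 to 1.08 ± 0.0587. Apod, a lipocalin of nerve and connective tissue, rose 4.24-fold from 0.280 ± 0.110 to 1.13 ± 0.0961. All 4 had adjusted p of 8.13e-05 or less (limma). The counts ran from 5 to 8 lower and 1 to 3 higher when each array was left out in turn. The probes of Vldlr disagreed: the brighter one was lower (log2 change -0.64 ± 0.20, SE) and the dimmer one higher (0.68 ± 0.23), both past the threshold, so no direction is given for that gene, which is counted among the 7 by its brighter probe. Of the list, 8 of 23 genes on the array were under the limit for dim probes, among them Apoa4, Apoc3, Apoc4 and Apoh.

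Apoa1 lies in a cluster of apolipoprotein genes. The following neighbours were looked up after the values were seen. Of the 3 protein-coding genes on either side, Apoc3 and Apoa4 lay under the limit for dim probes, while Apoa5, a regulator of plasma triglyceride, was higher, with 1.09 ± 0.0165 in wild type and 1.35 ± 0.0407 in knockout (adjusted p = 0.0343, limma). That call was lost in 7 of 16 settings, among them without wild-type array 1, 2 or 3 and without knockout array 2 or 3 (adjusted p of 0.0557 to 0.0950). On the other side Sik3, a kinase gene, was higher at 4.99 ± 0.328 against 3.20 ± 0.141. Pafah1b2 was lower, as Apoa1 was, at 3.38 ± 0.160 against 4.38 ± 0.111 (log2 change -0.38 ± 0.08, SE). Sidt2 was higher (0.31 ± 0.09), a call lost in 5 settings, among them quantile and cyclic loess normalization and without wild-type array 3 or knockout array 2 (adjusted p of 0.0668 to 0.0897). Beside Apom, Gpank1 was lower (log2 change -0.55 ± 0.11, SE), Aif1, a macrophage gene, was higher (0.47 ± 0.09) and Prrc2a did not pass (0.06 ± 0.08).

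The hepatoblast and serum members did not pass. Afp, alpha-fetoprotein, had intensities of 0.939, 0.876 and 0.732 in wild type and 1.29, 0.480 and 0.720 in knockout. The wild-type arrays lay inside the range of the knockout arrays, whose highest value, on array 1, was outside all others. The log2 change was -0.14 ± 0.28 (SE, adjusted p = 0.717, limma), and its 95% interval allows a knockout level from 0.589 to 1.39 times that of the wild type. The result depended on single arrays: without knockout array 1 the change was -0.52 with adjusted p = 0.0388, and without knockout array 2 it was 0.19 with adjusted p = 0.528. Afm, the neighbouring gene of the albumin family, was under the limit for dim probes. Ahsg, the fetuin that binds calcium phosphate in serum, had intensities of 0.647, 0.782 and 0.845 in wild type and 1.002, 0.808 and 0.913 in knockout. The ranges overlapped, and the change of 0.26 ± 0.15 (SE) did not pass (adjusted p = 0.192, limma), with an interval of 0.950 to 1.52 times.

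Trf, transferrin, had intensities of 1.64, 1.68 and 1.56 in wild type and 1.34, 1.79 and 1.58 in knockout. The knockout arrays spread to both sides of the wild type, and the log2 change was -0.06 ± 0.12 (SE, adjusted p = 0.705, limma). Its interval of 0.803 to 1.14 times was the narrowest among the members that did not pass. Of 19 tested genes of iron handling, 3 rose and 2 fell, with a median log2 change of 0.07. Slc11a2, the divalent metal transporter that moves iron out of the endosome after transferrin uptake, fell 2.32-fold from 1.06 ± 0.00614 to 0.462 ± 0.101 (adjusted p = 2.34e-04, limma). Ltf, which encodes the iron-binding protein lactoferrin, was 1.85-fold higher, at 0.609 ± 0.113 against 0.328 ± 0.0465. Tfrc, the transferrin receptor, was 1.37-fold higher (adjusted p = 0.0221, limma), a call lost without wild-type array 1 or 2 or knockout array 2 or 3, at adjusted p of 0.0574 to 0.0875. Cybrd1, a ferric reductase, was 1.25-fold higher (adjusted p = 0.0303, limma), and this call was lost without any one of 5 arrays, at adjusted p of 0.0508 to 0.0976, and held without knockout array 2. The ferritin genes Fth1 and Ftl1 had log2 changes of -0.09 ± 0.09 and 0.11 ± 0.08 (SE), and neither passed. Leaving out single arrays gave 1 to 4 higher and 1 to 2 lower.

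Fgb, the beta chain of fibrinogen, had intensities of 0.351, 0.376 and 0.382 in wild type and 0.242, 0.515 and 0.542 in knockout. The wild-type arrays were tightly grouped and the knockout arrays fell on both sides of them, array 1 below and arrays 2 and 3 above. The change of 0.14 ± 0.32 (SE) did not pass (adjusted p = 0.756, limma), with an interval of 0.674 to 1.80 times. The adjacent genes of the other fibrinogen chains, Fga and Fgg, were under the limit for dim probes over the 6 arrays and were not tested. Fga had means of 0.1178 in wild type and 0.146 in knockout. Fgg had intensities of 0.119, 0.138 and 0.0437 in wild type and 0.167, 0.2098 and 0.284 in knockout, so its knockout arrays were all the higher ones, with 1 of them above the limit. Of the 29 coagulation and fibrinolysis genes on the array, 13 were under that limit, F2, F7, Plg and Kng1 of the liver among them. Of the 16 tested, 3 fell and 1 rose, with a median of 0.12. Plat, tissue plasminogen activator, fell 4.35-fold from 1.63 ± 0.0698 to 0.414 ± 0.200 (adjusted p = 2.55e-04, limma), and Tfpi, which encodes the inhibitor of the tissue factor pathway, 1.75-fold from 5.22 ± 0.197 to 3.01 ± 0.466. F13a1 was 1.30-fold lower, a call lost without any one of wild-type arrays 1, 2 and 3 or knockout array 1 (adjusted p of 0.0753 to 0.108). Pros1, which encodes protein S, was 1.21-fold higher and missed the threshold without any one of 5 arrays (adjusted p of 0.0567 to 0.178).

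Spink1, the trypsin inhibitor, showed the largest loss among the members. Its intensity was 3.63, 3.82 and 3.40 on the wild-type arrays and 0.861, 0.992 and 0.515 on the knockout arrays. The groups were far apart, and knockout array 3 was the lowest. The means were 3.62 ± 0.209 and 0.789 ± 0.247 (SD, n = 3 each), so that 21.1% of the wild-type signal remained, with a 95% interval of 0.157 to 0.282 times (adjusted p = 5.59e-06, limma). The list of Kazal inhibitors and pancreatic secretory genes had 9 tested members, of which 1 fell and 1 rose. Cpa1, the pancreatic carboxypeptidase A1, fell 4.95-fold from 13.4 ± 0.860 to 2.71 ± 0.257 (adjusted p = 1.37e-08, limma). Pnliprp1, a lipase-related protein gene of the pancreas, rose 2.30-fold from 0.810 ± 0.0876 to 1.86 ± 0.228 (adjusted p = 2.72e-05, limma). Prss2, which encodes a trypsinogen, and Ptf1a, the exocrine regulator, did not pass, with changes of 0.34 ± 0.39 and 0.47 ± 0.21 (SE). Cpb1, Cel and Amy2a5 were under the limit for dim probes, and the other Spink genes of the list were not on the platform annotation. Of 14 tested genes of the urogenital ridge list, which holds the deleted Wt1 itself, 8 fell and 2 rose. Over all tested probes 17.2% fell and 24.1% rose. The list's summed intensity was 112 to 120 on wild-type arrays and 55.1 to 58.3 on knockout arrays. Much of that drop lay in Wt1, whose fall was set by the genotype, and in Amhr2, with means of 30.6 in wild type and 0.480 in knockout. The sum is therefore no measure of ridge cells. The part of ridge cells in the loss of Spink1 was not tested.

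**Figure D2:**
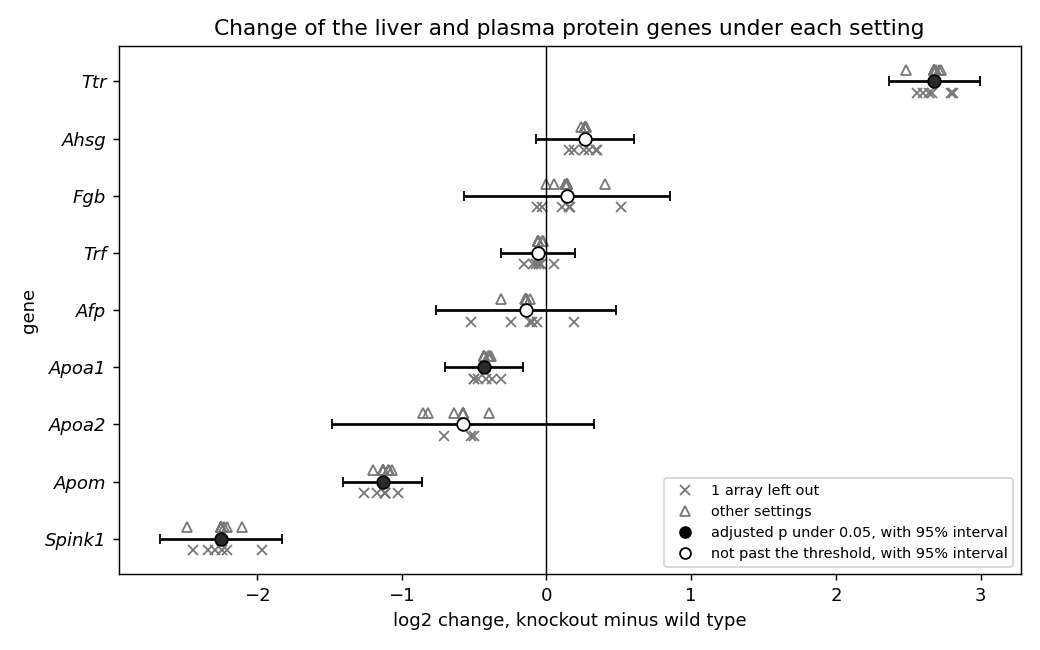
Log2 change, knockout minus wild type, of each gene (circles with 95% intervals, filled where adjusted p is under 0.05), with the values from leaving out 1 array (crosses) and from other settings (triangles). Ttr, Apom and Spink1 stay on their side of 0 throughout, while the crosses of Afp, Fgb and Trf lie on both sides.

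Of 18 tested genes of other plasma carriers and protease inhibitors, 6 rose and 1 fell, with a median log2 change of 0.35, beside the 24.1% and 17.2% of all probes that were called higher and lower. The count of higher genes was 4 to 6 when each array was left out, 3 among probes above the median probe, and 9 with array weights or with no filter on dim probes. Vtn, the adhesive plasma protein vitronectin, rose 7.44-fold from 0.302 ± 0.0630 to 2.23 ± 0.317 (adjusted p = 6.40e-07, limma), and Ambp, which encodes alpha-1-microglobulin and bikunin, 2.75-fold from 0.268 ± 0.0363 to 0.740 ± 0.119 (adjusted p = 4.07e-04, limma). Saa2, a serum amyloid A gene with near-identical relatives that a probe may not separate, was at least 1.84-fold higher, and the call was lost without wild-type array 2 or 3 or knockout array 2 (adjusted p of 0.0715 to 0.0744). The gene that fell was Serpinf1, which encodes the pigment epithelium-derived factor, at 10.5 ± 0.394 and 6.49 ± 0.656, named after its values were seen. Hp and Hpx, the haptoglobin and hemopexin genes of liver, did not pass, with changes of 0.19 ± 0.24 and 0.08 ± 0.13 (SE), and 22 of the 40 genes on the array, or 55.0%, were under the limit for dim probes, against 25.8% of all probes. They included Afm, Cp, Fetub, Orm1, Serpina1a and 4 of the Itih genes of the inter-alpha-trypsin inhibitor.

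Genes of hepatocyte metabolism showed no common direction. Of 19 tested, 4 fell and 2 rose, with a median of -0.10, and the 2 gains, Glul and Igf2, were no longer called under quantile or cyclic loess normalization. Dlk1, an imprinted gene of hepatoblasts and of many embryonic mesenchymes, fell 2.32-fold from 32.2 ± 0.940 to 13.9 ± 0.470, Asgr1, a subunit of the asialoglycoprotein receptor, 1.39-fold, and Gamt, an enzyme of creatine synthesis, 1.34-fold. Ass1, an enzyme of arginine synthesis and the urea cycle, was 1.47-fold lower, a call lost without wild-type array 2 or 3 or knockout array 3 (adjusted p of 0.0571 to 0.0607). The probes of Asl differed: the brighter one did not pass (-0.25 ± 0.13, SE) and the dimmer one was lower (-0.45 ± 0.11, adjusted p = 0.00605, limma). Of the 29 genes on the array, 10 were under the limit for dim probes, including the hepatocyte enzyme genes Tat, Otc and Mat1a. Left-out arrays gave 1 to 4 higher and 3 to 5 lower.

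Among regulators of liver and endoderm, 2 of 11 tested genes rose and 2 fell. Onecut2, a factor of liver and pancreas development, rose 2.25-fold from 0.654 ± 0.0568 to 1.504 ± 0.384, and Lin28a, the RNA-binding inhibitor of let-7, 1.25-fold. Gata6, a factor of endoderm and mesoderm, fell 2.35-fold from 4.79 ± 0.189 to 2.05 ± 0.230, and Cebpb, an activator of acute-phase genes, 2.37-fold from 0.863 ± 0.0596 to 0.365 ± 0.0383. All 4 had adjusted p of 0.00561 or less (limma). Foxa3, Cebpa and Nr1h4 were under the limit for dim probes, and Hnf4a was not on the platform annotation. Hhex, which marks the liver bud, had a change of 0.14 ± 0.25 (SE). Prox1 had changes of -0.24 ± 0.16 on its brighter probe and 0.35 ± 0.27 on its dimmer one, so no direction is given for it. Neither Hhex nor either Prox1 probe passed. Nr2f2, counted by its brighter probe, did not pass there (0.08 ± 0.08). Its dimmer probe was lower (-0.72 ± 0.10, SE, adjusted p = 1.92e-04, limma).

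The label was checked against these markers. Of the 9 liver and plasma genes, 4 were dimmer than the median probe of the array, and the summed intensity over the 9 probes was 11.7 to 13.01 on wild-type arrays and 10.6 to 11.2 on knockout arrays. That sum sets the rise of Ttr (mean 0.588 to 3.75) against the losses of Spink1 (3.62 to 0.789) and Apom (2.46 to 1.13). It is therefore no measure of liver content. The embryonic liver also makes blood. Of the erythroid genes, 13 of 15 tested did not pass, 1 rose and 1 fell, and the summed intensity was 1504 to 1547 on wild-type arrays and 1499 to 1605 on knockout arrays. The 2 called were Tal1, 1.222-fold higher, and Lmo2, 1.44-fold lower, transcription factor genes of blood and endothelium. Under quantile or cyclic loess normalization the erythroid counts were 0 higher and 5 lower. The globin genes Hba-x and Hbb-y had changes of 0.12 ± 0.08 and -0.13 ± 0.09 (SE), and neither passed.

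Among the listed genes that were not tested, 4 lay above the limit for dim probes on all 3 knockout arrays and below it on all 3 wild-type arrays, and none the reverse. The share of all untested probes that did so was not counted, so these counts are no result about the lists. With no filter on dim probes the median log2 change over all probes was 0.14, against 0.09 in the main setting. Foxa2, a pioneer factor of endoderm, had intensities of 0.156, 0.0831 and 0.116 in wild type and 0.307, 0.369 and 0.274 in knockout, at least 1.45-fold higher. Cyp7a1, the rate-limiting enzyme of bile acid synthesis, had 0.119, 0.0361 and 0.0947 in wild type and 0.287, 0.4097 and 0.294 in knockout, at least 1.5004-fold higher. The others were F9, coagulation factor IX, at least 1.58-fold higher, and Serpina3n, a serine protease inhibitor gene, at least 1.32-fold. With no filter on dim probes all 4 passed, at adjusted p of 0.00420 to 0.0314 (limma). The 4 genes were named after their values were seen. They were picked because the genotypes lay apart on these same arrays, so the p-values are no separate support.

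**Figure D3:**
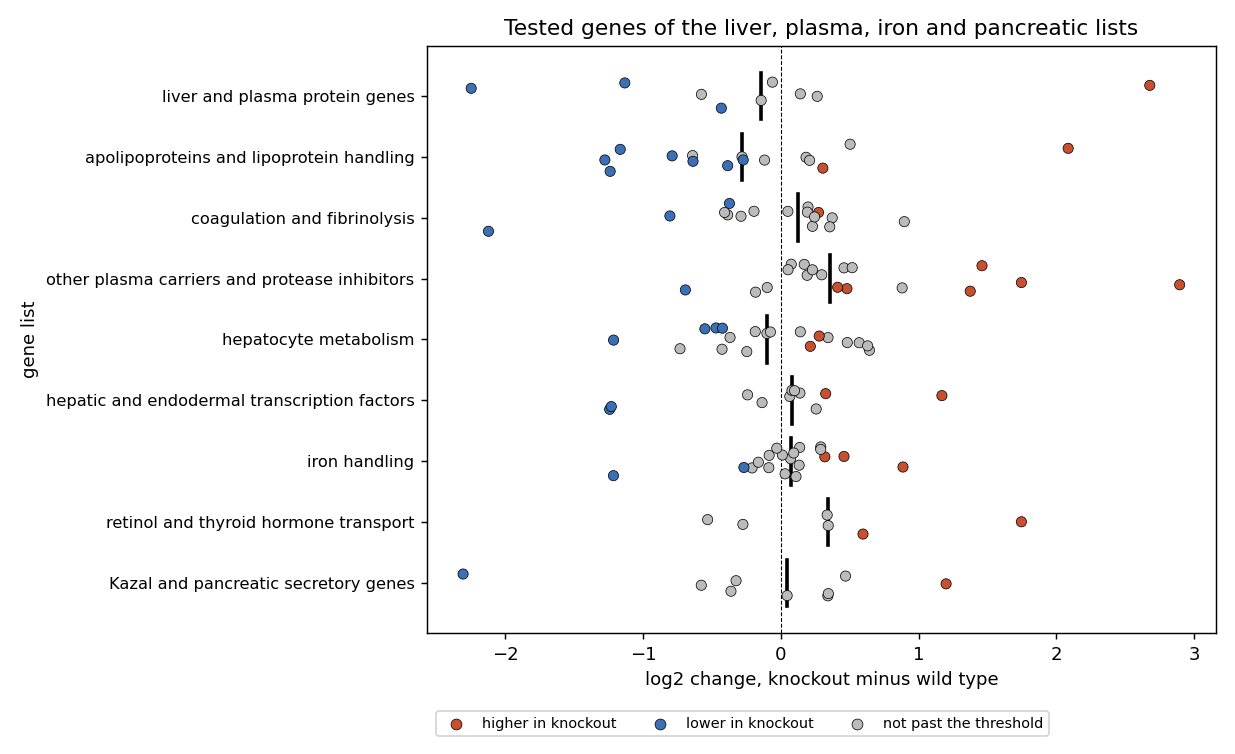
Log2 change, knockout minus wild type, of every tested gene of the 9 lists (1 point a gene, red where called higher, blue where called lower, grey where not past adjusted p 0.05), with a black bar at each list's median. The liver and plasma protein genes spread from -2.25 to 2.68, and the medians run from -0.28 for lipoprotein handling to 0.35 for other plasma carriers.

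The genes most like Ttr and Spink1 were sought among 8233 named probes brighter than the median probe. Likeness was the root mean square difference of log2 values over the 6 arrays, each less its wild-type mean, so it favours genes with a change of the same size. Nearest to Ttr were Synpo2l (0.133), a muscle actin-associated protein gene, Cartpt (0.145), a neuropeptide precursor, Emilin2 (0.173), a matrix glycoprotein gene, Barx1 (0.251), a homeobox gene of stomach mesenchyme, and Dmrt2 (0.269), a factor of the dermomyotome. None of these 5 is on the liver and plasma lists. Nearest to Spink1 were Selenow (0.146), a selenoprotein gene, Cpa1 (0.221), Tgfbi (0.231), a matrix protein gene, Tst (0.275), which encodes the sulfurtransferase rhodanese, and Osr2 (0.287), a zinc finger gene of the mesonephros. Cpa1, the pancreatic list member that fell, is among the 5 nearest to Spink1. Its log2 change was -2.31 against -2.25 for Spink1, so its fall and its nearness are not separate findings. The likeness is a description over 6 arrays.

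**Figure D4:**
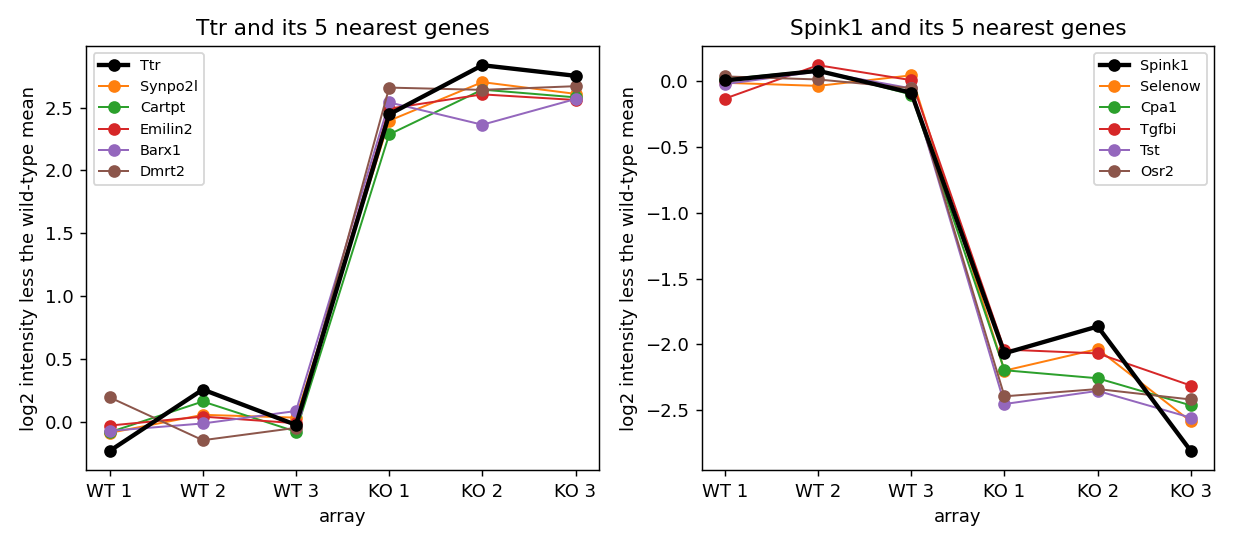
Log2 intensity less the wild-type mean on each of the 6 arrays for Ttr (left, black) and Spink1 (right, black) with the 5 genes nearest to each. All lines lie near 0 on the wild-type arrays and near the change of the named gene on the knockout arrays, with Spink1 lowest on knockout array 3.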

How the data were processed

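Total RNA was labelled with biotin and hybridised to CodeLink arrays, per the labels' protocols. The authors deposited 1 column of linear spot intensity per array. How spots were read and background removed is not stated in the labels. The table held 190 to 212 empty cells and 153 to 246 values at or below 0 per array, with no detection flag.

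Values under the 5th percentile of positive values (0.0811) were set to it and log2 was taken. Array medians differed by 0.0153 on that scale, so no further scaling was applied. Probes with values on at least 2 arrays per genotype and a mean above the 25th percentile were fitted with limma 3.58.1 in R 4.3.3 (lmFit, eBayes with an intensity trend, genotype as the only term), p-values two-sided and adjusted by Benjamini-Hochberg over all 15062 probes. The fit was tested on simulated data. A fold is the antilog of the log2 change. Where 1 genotype's mean lay under the limit for dim probes, the fold is a lower bound against that limit or the probe's own higher value. Means ± SD are of deposited intensities.

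The platform annotation, which can be old, gave 15120 probes 1 symbol and 38 several, and did not list 5131. By Entrez identifier 15064 were matched to RefSeq (GRCm38.p6). The probes' build is not given. Besides the members, 14 lists were used, each gene represented by the brightest of its probes measured on every array. The members and the lists were chosen with earlier results of these data known. Genes named are all members, Wt1, up to 4 called genes of a list with the largest changes (the 2 brightest where under 2 passed), the 5 genes most like each of the 2 members with the largest change, and others, such as neighbours of the members, named after their values were seen.

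Alternatives were quantile and cyclic loess normalization, other floors, filters and variance priors, array weights, a replicate block and leaving out each array. Same-numbered arrays did not deviate together (correlations of -0.0208 to 0.000489 between their deviations).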

Additional observations from a re-analysis of the deposited data

How the results depend on the processing

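Ttr, Apom and Spink1 kept their direction and their call in all 16 alternatives, with log2 changes of 2.49 to 2.81, -1.26 to -1.02 and -2.49 to -1.97. Apoa1 kept its direction in all 16 and lost its call without wild-type array 2. The sign of 3 members that did not pass turned: Fgb was -0.0054 under cyclic loess normalization and -0.064 to 0.52 when each array was left out, Afp was -0.52 to 0.19 and Trf -0.16 to 0.049. The cause was not tested. The number of members called (3 to 5), of all probes called and of genes called over all lists together each stayed within 1.5 times its value in every alternative. Counts of single lists in 1 direction moved more often: 75 of 448 lay beyond 1.5 times. The median log2 change over all probes was 0.030 under quantile and 0.024 under cyclic loess normalization, against 0.094 in the main setting. The replicate block gave 4 members and 6020 probes called, against 4 and 6221. Same-numbered arrays showed no shared deviation, which does not tell whether they were handled together. No depth or detection flag was used here, so dim probes such as Apoa2 and Fgb have limited precision. Glul, Igf2 and Tal1 were no longer called under quantile or cyclic loess normalization.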

Other observations

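Genes of sinusoidal and general endothelium, the vessels of the embryonic liver among them, went apart. Of 6 tested genes of that list, 3 rose and 3 fell. Stab2, a scavenger receptor of sinusoidal endothelium, had means of 3.64 ± 0.176 in wild type and 5.25 ± 0.413 in knockout (SD, n = 3), a 1.44-fold rise (adjusted p = 4.43e-04, limma). Pecam1, an adhesion molecule of all endothelium, fell 2.49-fold from 0.801 ± 0.0578 to 0.340 ± 0.151, Emcn 1.76-fold from 10.9 ± 0.298 to 6.27 ± 1.19 and Tek, the angiopoietin receptor, 1.64-fold. Under quantile or cyclic loess normalization 1 gene of the list was called higher in place of 3.

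Of 15 tested genes of gut endoderm and epithelium, 4 rose and 4 fell. Gcg, 1 of the 4 that rose, passed the limit for dim probes through its knockout arrays. The gains were led by the hormone genes Gcg and Pyy, and the losses by Krt8, a keratin of simple epithelia, 2.70-fold lower at 0.618 ± 0.0460 against 1.67 ± 0.154, and Cdh1, E-cadherin, 1.87-fold lower. Vil1 and Cdx2 of the intestine did not pass, with changes of 0.40 ± 0.23 and -0.07 ± 0.29 (SE). Of 14 tested macrophage genes, 2 were higher and 2 lower. Aif1 was 1.39-fold higher and Coro1a 1.43-fold lower. Tyrobp, 1.31-fold higher, was lost without any one array but knockout array 1 (adjusted p of 0.0586 to 0.0797), and Fcgr1, 1.23-fold lower, without wild-type array 1 or 2 or knockout array 3 (adjusted p of 0.0726 to 0.142).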
